A study of Homo sapiens with 6 samples.

Results

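The genes described here store iron, move it across membranes, sense it in the cytosol or release it from heme. They were chosen from a list of 10 names, and a gene was taken when the platform annotation gave its name alone to at least 1 probe set, a set of short oligonucleotides that measures 1 transcript region. By this rule 8 genes with 20 probe sets were found, of 19775 genes that could be named in this way: FTL (storage), SLC40A1 (export), TFRC, SLC11A2 and CYBRD1 (uptake), HMOX1 (heme breakdown), ACO1 (iron sensing) and NCOA4 (ferritin turnover). The other 2 listed genes were not analysed here.

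The samples were cultures of HT29, a human colon adenocarcinoma cell line, 3 labelled NS398-treated and 3 labelled control, each hybridised on 1 HG-U133 Plus 2.0 array. NS398 is a selective inhibitor of cyclooxygenase-2. Per the study's methods it was dissolved in DMSO and given at the highest dose used there, the controls received DMSO alone, and both groups were kept in serum-free medium during the treatment. A single line was used, and its 3 samples per group are biological replicates in the words of the study's methods, although the labels name no separate cultures, so each p-value reflects only how these samples spread. Groups are those of the deposited labels. The study's text gives the opposite direction for most genes whose direction it states, so every sign below refers to arrays as labelled and would turn if the labels were exchanged.

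Iron enters most cells as transferrin bound to the transferrin receptor, is released in endosomes and passes into the cytosol through SLC11A2. Iron that is not used is stored in ferritin, a shell of heavy and light chains, or leaves the cell through ferroportin, the product of SLC40A1. In the intestine CYBRD1 and SLC11A2 serve the uptake of dietary iron at the brush border and ferroportin its passage to the blood. When iron is scarce, iron regulatory proteins bind a hairpin called the iron responsive element, which blocks translation of ferritin messages and protects the message of the transferrin receptor from decay. The transcription factor NRF2 is another known inducer of ferritin, ferroportin and heme oxygenase messages.

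The light ferritin chain FTL is the member with the smallest p-value, and the loop of its iron responsive element lies near the start of the message. The loop letters CAGTGN were looked for on the sense strand in the first 50 bases after each annotated start (RefSeq, GRCh38.p14). Of 35116 such windows 6.36% held them. Of 12 windows of 7 members 2 held them, those of FTL and of 1 alternative start of NCOA4. Of 14 windows of the other iron genes that passed the test described below, 1 held them (BOLA3). Both member sites are shown to set the known FTL element beside the other match among the members, with the loop letters in capitals.
FTL, chr19:48965329-48965358, plus strand: gtctgtctcttgcttcaaCAGTGTttggac
NCOA4, alternative start, chr10:46019954-46019983, minus strand: tgaaagctgaCAGTGCtctaactgcgccac
The first capital stands at base 39 of the message in FTL and base 27 in NCOA4. A match of 6 letters is a description and does not show a hairpin. The core of the antioxidant response element bound by NRF2, TGACNNNGC, was searched on both strands from 250 bases before to 50 after the start and was present in 13.3% of all windows, in 1 of 12 member windows (the same NCOA4 start, where it overlaps the loop letters) and in 1 of 14 windows of the other iron genes that passed the test described below (ISCU). HMOX1 was not searched. Absence says only that these letters are not in this window.

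Signals are linear, signals of a group are geometric means of 3 arrays, and a difference is the mean log2 signal of NS398 arrays less that of controls, given with its standard error (SE). Each probe set was tested with limma, its prior variance following the signal level (the variance-trend test), and an adjusted p (Benjamini-Hochberg, across the 54675 probe sets of the array) under 0.05 counted as passed. Genes were read from their brightest probe set. Over all probe sets the median log2 signal was 0.12 higher in NS398 arrays, while over those brighter than 128 (a mean log2 signal of 7) the median difference was 0.0073. Pearson's r across these brighter probe sets was 0.961 to 0.983 within and 0.931 to 0.952 between groups. The epithelial markers EPCAM, KRT8, KRT18 and CDH1 were bright, but CDX2, CDH17 and GPA33 were under 128, and of the 10 epithelial markers KRT20 and GPA33 rose and VIL1 fell. Of the markers of other cells, 8 of 10 leukocyte, 9 of 10 fibroblast, 6 of 8 endothelial and 2 of 3 erythroid genes were under 128, and the summed signal of the leukocyte list, nearly all of it LYZ, was 25800 to 32700 in control and 28900 to 33900 in NS398 arrays. The fibroblast list summed to 798 to 1140 in control and 1020 to 1210 in NS398 arrays, and LUM was its only gene to rise.

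Of the 8 iron genes, FTL and HMOX1 rose and 0 fell. Among all genes 10.1% passed the test, 5.23% as higher. The signals of 6 of the 8 genes did not overlap between groups and were higher in NS398 arrays, where 17.2% of all genes did so and 30.6% separated in either direction. The median difference over the 8 genes was 0.32, beside 0.06 over all genes. Plain limma, which uses 1 prior variance for all signals, called 0 of the 8 genes (3 at an unadjusted p under 0.05) and 0.0759% of all genes. Of the 20 probe sets 3 rose, both of FTL and that of HMOX1, and 0 fell, beside 3.26% and 3.17% of all probe sets (6.43% in all, and 0.0439% with plain limma). The signals of 7 of the 20 were separate between groups, all higher in NS398 arrays, beside 13.4% higher and 24.1% in either direction over the whole array.

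**Figure D1:**
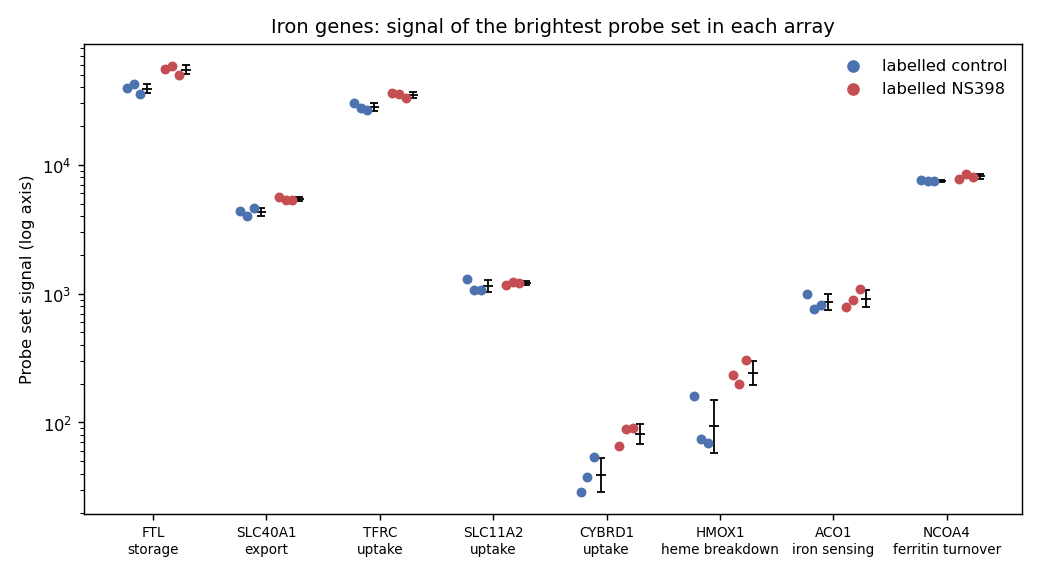
Signal of the brightest probe set of each iron gene on each of 6 arrays (points, on a log axis), with the geometric mean and SD of the log2 signal of 3 arrays beside them (bars). FTL, SLC40A1, TFRC, CYBRD1, HMOX1 and NCOA4 did not overlap between groups, and SLC11A2 and ACO1 did.

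Iron storage was measured by the light chain of ferritin. The brighter FTL probe set (212788_x_at) had signals of 39196, 42287 and 35710 in control and 54968, 58863 and 50138 in NS398 arrays. Every NS398 array lay above every control array. FTL thus rose from 38971 to 54539, 1.40-fold (95% interval 1.22 to 1.60), a difference of 0.48 ± 0.09 (SE, variance-trend adjusted p = 0.00795). The other FTL probe set (213187_x_at) read 30335, 30585 and 29988 in control and 45188, 45359 and 41188 in NS398 arrays, again without overlap. Its difference of 0.53 ± 0.07 (adjusted p = 0.00166) was close to that of the first. Both names end in x_at, which marks probes that can also bind related transcripts, so messages of ferritin-like sequences cannot be told apart from FTL here. Depending on the array, 0.102% to 0.441% of probe sets were brighter than these, and compression of such bright signals was not tested. The brighter set lost its call with plain limma (adjusted p = 0.291), after median centring (0.36, adjusted p = 0.0554), without control replicate 3 (0.42, adjusted p = 0.0506) and without NS398 replicate 2 (0.43, adjusted p = 0.0619). The other set kept its call in 13 of 14 alternatives, median centring included (0.41, adjusted p = 0.0404), and lost it with plain limma (adjusted p = 0.222). With quantile normalisation both sets kept their calls, but their differences shrank to 0.31 and 0.37 (adjusted p = 0.0109 and 0.00792).

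Export was read from SLC40A1, which encodes ferroportin, the iron exporter of mammalian cells. Its bright probe set (223044_at) had signals of 4388, 3970 and 4603 in control and 5597, 5363 and 5301 in NS398 arrays. The groups did not overlap, and the NS398 arrays lay closer together than the controls. The difference of 0.33 ± 0.10 (95% interval 0.11 to 0.55) did not pass (adjusted p = 0.0788), except when only probe sets above 128 were tested (adjusted p = 0.0343). After median centring it was 0.21. The dim second probe set (233123_at) gave 0.42 ± 0.38 with overlapping groups.

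Among the uptake genes, the transferrin receptor gene TFRC was the brightest. Its first probe set (208691_at) read 30382, 27370 and 26747 in control and 36367, 35277 and 32901 in NS398 arrays. All NS398 arrays were above all controls, by a small margin between the highest control and the lowest NS398 array. The difference of 0.31 ± 0.08 (95% interval 0.13 to 0.49) lay just outside the threshold (adjusted p = 0.0505), and it passed without control replicate 1 (0.36, adjusted p = 0.0154), with array weights (0.33, adjusted p = 0.0213) and among probe sets above 128 (adjusted p = 0.0492). It shrank to 0.19 with median centring and 0.16 with quantile normalisation.

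The other 4 probe sets of TFRC did not pass. The second bright one (207332_s_at) differed by 0.22 ± 0.09 (adjusted p = 0.231), with overlapping groups. Another (237215_s_at) spread widely in NS398 arrays, with 4803, 3252 and 1232 against 4134, 3082 and 3205 in control, a difference of -0.36 ± 0.39. The remaining pair was dim (-0.33 ± 0.71 and -0.21 ± 0.88). With all 5 probe sets averaged at equal weight, the dim pair included, the TFRC difference turned to -0.08 (adjusted p = 0.819). The sign for this gene thus depends on which of its probe sets are read. Of its 3 sets above 128 only 237215_s_at was negative, and it turned positive only without NS398 replicate 3 (0.20). The brighter sets 208691_at and 207332_s_at stayed positive in all 14 alternatives (0.16 to 0.36 and 0.10 to 0.29).

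SLC11A2, the divalent metal transporter that carries ferrous iron, had 5 probe sets, and 0 of them passed (adjusted p of 0.792 to 0.905). The brightest (203123_s_at) read 1302, 1070 and 1071 in control and 1166, 1238 and 1219 in NS398 arrays, so the groups overlapped. Its difference was 0.08 ± 0.13, with a 95% interval of -0.21 to 0.37 that leaves out a 1.5-fold change in either direction. The next brightest set, 203124_s_at, gave 0.08 ± 0.12. Of the others, 203125_x_at differed by -0.07, 210047_at by 0.16 and the dim 237106_at by 0.44 ± 0.94.

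CYBRD1, a ferric reductase of the duodenal brush border, was dim. Its brighter probe set (222453_at) had 29.1, 38 and 53.8 in control and 66.1, 89.2 and 91.2 in NS398 arrays. The groups did not overlap, yet the difference of 1.06 ± 0.47 did not pass (adjusted p = 0.254), and the gene passed in 0 of 14 alternatives (adjusted p of 0.204 to 0.854). The interval reached from 0.03 to 2.09. Its other probe set (217889_s_at) was at 2.20 to 45.7 in all arrays and gave -0.45 ± 1.16.

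**Figure D2:**
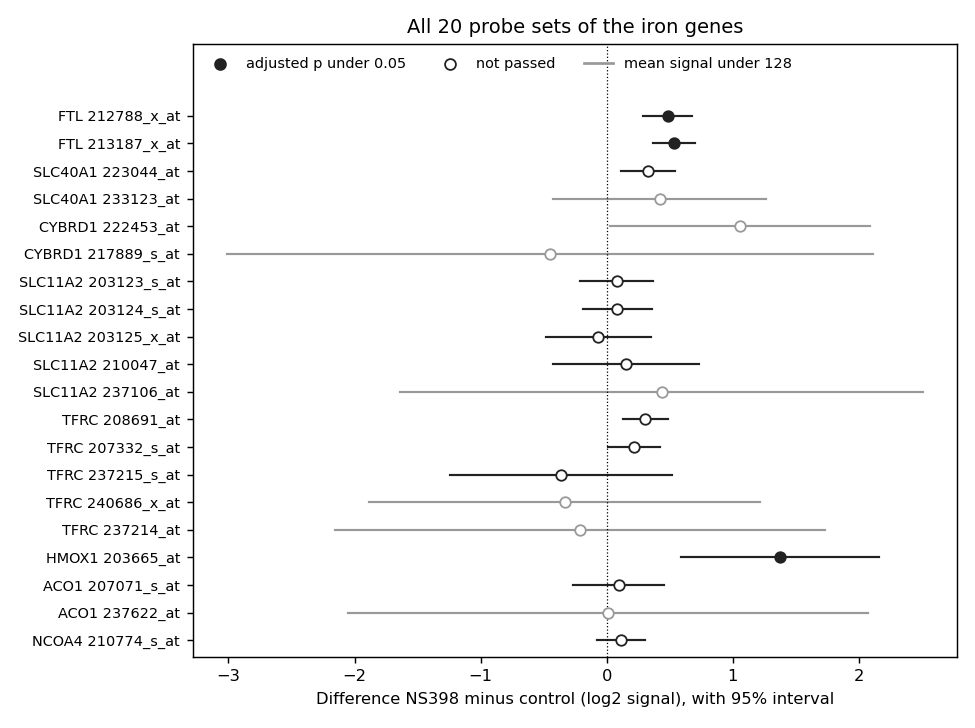
Difference between NS398 and control arrays for each of the 20 probe sets of the iron genes, with the 95% interval of the variance-trend fit (lines), filled where the adjusted p was under 0.05 and grey where the mean signal was under 128. The 3 filled points are both FTL sets (0.48 and 0.53) and HMOX1 (1.38), and most of the 7 dim sets have wide intervals, as has the brighter TFRC set 237215_s_at.

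Storage and export were compared with uptake as means of log2 signals. The mean of FTL and SLC40A1 was 13.68, 13.66 and 13.65 in control and 14.10, 14.12 and 13.99 in NS398 arrays, a difference of 0.41. The mean of TFRC, SLC11A2 and CYBRD1 was 10.03, 10.02 and 10.17 in control and 10.46, 10.62 and 10.59 in NS398 arrays, a difference of 0.48. Both means were higher in every NS398 array than in any control array. Storage and export minus uptake came to 3.65, 3.64 and 3.47 in control and 3.64, 3.50 and 3.40 in NS398 arrays, so the 2 groups overlapped and the difference of -0.07 was smaller than the SD within either group (0.0995 and 0.117). This value depends on dim CYBRD1. Without it, a choice made after the values were seen, the uptake difference was 0.19 and storage and export exceeded it by 0.21, with 1.06, 1.26 and 1.26 in control and 1.43, 1.43 and 1.36 in NS398 arrays. No p-value is given for these means, since their members were chosen.

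HMOX1, the inducible heme oxygenase that frees iron from heme, had the largest difference of the 8 genes. Its only probe set (203665_at) read 161, 73.8 and 68.8 in control and 235, 201 and 304 in NS398 arrays. The groups did not overlap, but control replicate 1 lay closer to the lowest NS398 array than to the other controls. HMOX1 rose from 93.5 to 243, 2.60-fold (95% interval 1.51 to 4.47), a difference of 1.38 ± 0.36 (adjusted p = 0.0435). The call was kept in 6 of 15 alternatives. Among them is the test of probe sets above 128 only. HMOX1 met that filter through its NS398 arrays, since its control signal of 93.5 was under 128. It was lost with median centring (1.26, adjusted p = 0.0593) and quantile normalisation (1.32, adjusted p = 0.0552). Leaving out any 1 array other than control replicate 1 also ended it, with adjusted p = 0.112 and 0.157 when control replicate 2 or 3 was dropped and adjusted p = 0.129, 0.0876 and 0.163 when NS398 replicate 1, 2 or 3 was. Without control replicate 1 the difference grew to 1.77 (adjusted p = 0.00718).

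Of the iron sensors, ACO1 was measured, the cytosolic aconitase that becomes an iron regulatory protein when it loses its iron-sulfur cluster. The bright probe set (207071_s_at) read 1001, 762 and 822 in control and 789, 898 and 1078 in NS398 arrays. The groups overlapped over nearly their whole range, with a difference of 0.09 ± 0.17 (95% interval -0.27 to 0.46, adjusted p = 0.828). The dim probe set (237622_at) gave 0.01 ± 0.94.

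NCOA4, the receptor that delivers ferritin to autophagosomes for breakdown, had signals of 7625, 7461 and 7439 in control and 7816, 8439 and 8099 in NS398 arrays (210774_s_at). The groups did not overlap, but the difference was only 0.11 ± 0.09 (95% interval -0.08 to 0.30, adjusted p = 0.563) and vanished after median centring (-0.0094). NCOA4 and the bright sets of ACO1 and SLC11A2 are therefore the 3 genes with the smallest differences, and their signs changed with median centring.

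**Figure D3:**
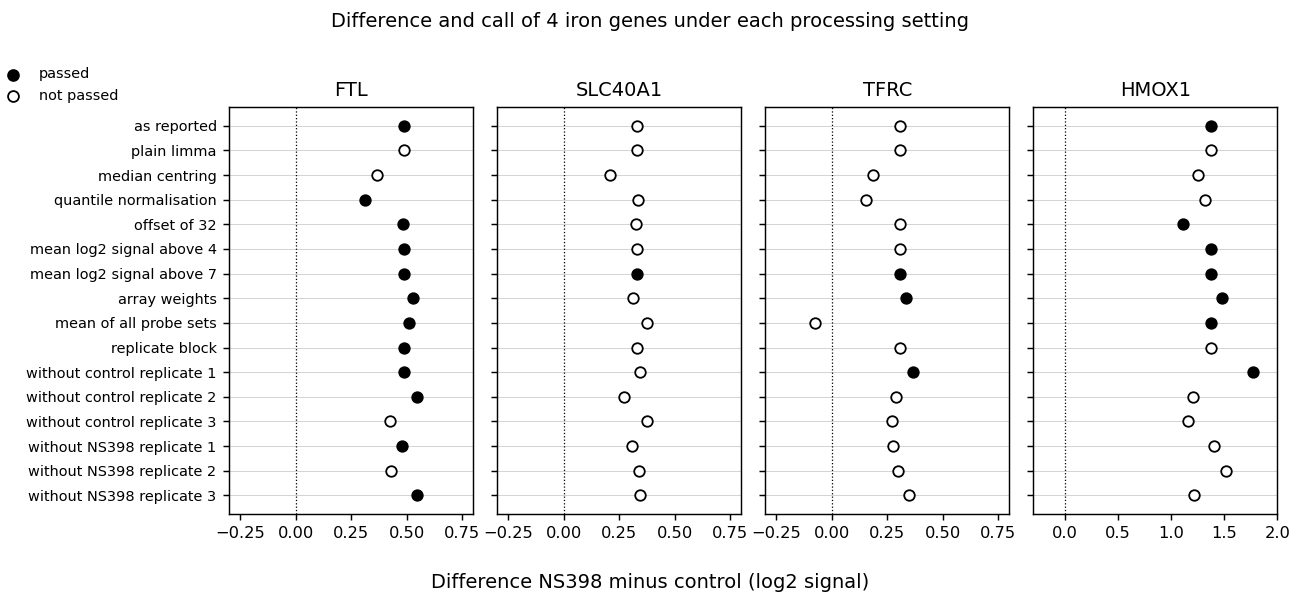
Difference between NS398 and control arrays of FTL, SLC40A1, TFRC and HMOX1 (brightest probe set) as reported and under each of 15 other settings, filled where the adjusted p was under 0.05. FTL and HMOX1 stayed above 0 in all of them, with ranges of 0.31 to 0.55 and 1.11 to 1.77, and TFRC fell below 0 when its probe sets were averaged.

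Measures of RNA quality were compared as well. The ratio of ACTB signals at the 3' and 5' ends was 1.27 to 1.32 in control and 1.45 to 1.71 in NS398 arrays, that of GAPDH was 0.969 to 1.08 and 1.04 to 1.21, and the signal of 18S rRNA was 3450 to 4860 and 4830 to 23600. The ACTB ratio was thus higher in every NS398 array than in any control array (exact permutation test, 2-sided p = 0.1, the smallest that 3 against 3 arrays allow), while the ranges of the other 2 measures overlapped. Their part in the results for FTL, HMOX1 and the other iron genes was not tested.

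The genes whose signals followed FTL most closely over the 6 arrays, among named genes brighter than 128 outside the list, were GCC1 (Pearson's r = 0.994), RNF19B (0.994), DNAH14 (0.991) and ZNF77 (0.990). With 6 arrays in 2 groups such values, the highest of a search over many genes, are a description. They take in both the difference between groups and the order of arrays within each group. By the variance-trend test GCC1 and DNAH14 passed (adjusted p = 0.0167 and 0.00515), and RNF19B and ZNF77 did not (0.0794 and 0.209). Another gene among the 5 closest is not reported here.

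Other genes of iron and heme metabolism were taken from 6 lists with 88 names, of which 80 could be measured. By the variance-trend test 13 rose and 2 fell, beside 5.23% and 4.85% of all genes, and the median difference was 0.15. Plain limma called 0 of them (19 at an unadjusted p under 0.05). After median centring 3 higher and 2 lower remained of the 15, BLVRB, HSPA9, STEAP1, MELTF and NFU1. Leaving out single arrays gave 6 to 15 calls among the 80. There were 6 without control replicate 2 or 3 or NS398 replicate 2 or 3, and 8 without NS398 replicate 1. Without control replicate 1, 14 of the 15 were called again.

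Among 14 genes of iron entry and the transferrin cycle 4 rose and 1 fell. STEAP3, the ferric reductase of the endosome that acts after transferrin has given up its iron, had 1180, 672 and 839 in control and 1332, 1757 and 1884 in NS398 arrays, with a difference of 0.91 ± 0.21 (adjusted p = 0.0233). Its relative STEAP1 had 442, 629 and 605 in control and 1137, 1007 and 1058 in NS398 arrays, a rise of 1.93-fold (0.95 ± 0.17, adjusted p = 0.00606). SLC25A37, which brings iron into mitochondria, rose by 0.70, and SLC39A14, an importer of zinc and of iron not bound to transferrin, by 0.44, the latter named after its value was seen. MELTF, a membrane-anchored relative of transferrin, fell from 1781 to 679 (-1.39 ± 0.26, adjusted p = 0.00784). Under 15 alternatives STEAP1 and MELTF kept their calls in 14, STEAP3 in 9 and SLC25A37 in 8.

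Of 9 genes of iron oxidation, export and the hepcidin axis 0 passed (0 at an unadjusted p under 0.05), and 6 were under 128. HEPH, a ferroxidase that works with ferroportin in the intestine, differed by 0.16 (adjusted p = 0.589). Like NEO1, BACH1, ALAS1 and HMOX2 below, it was named after its value was seen. HEPH and NEO1 passed only when the probe sets of a gene were averaged, and their directions in that setting are not given here. Of 9 iron chaperones and regulators, MAFG rose by 0.67 (adjusted p = 0.0168) and NFE2L2 by 0.42 (adjusted p = 0.0360). NFE2L2 encodes NRF2 and MAFG a small partner protein with which it binds DNA. BACH1, the heme-sensing repressor of HMOX1, gave 0.34 without passing (adjusted p = 0.244). The calls of MAFG and NFE2L2 were kept in 8 and 6 of 15 alternatives and were lost after median centring.

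Heme synthesis and breakdown each had 2 genes that rose. Of 10 synthesis genes these were TMEM14C, which carries a porphyrin precursor into mitochondria (0.61 ± 0.10, adjusted p = 0.00378), and UROS, the uroporphyrinogen III synthase (0.68 ± 0.15, adjusted p = 0.0196). The first enzyme of the pathway, ALAS1, differed by 0.21 without passing (adjusted p = 0.408). Of 13 genes of heme breakdown and transport, the biliverdin reductase gene BLVRB rose from 2319 to 4377 (0.92 ± 0.12, adjusted p = 0.00106). Its signals were 2693, 2065 and 2243 in control and 4405, 4182 and 4552 in NS398 arrays, well apart. The lysosomal heme exporter gene SLC48A1 rose by 0.63 (adjusted p = 0.0317), and the constitutive heme oxygenase gene HMOX2 gave -0.13 without passing (adjusted p = 0.621). BLVRB and TMEM14C kept their calls in 14 and 13 of 15 alternatives, UROS and SLC48A1 in 6 each.

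Of 25 genes of iron-sulfur cluster assembly 21 did not pass, 3 rose and 1 fell, beside 5.23% higher and 4.85% lower of all genes, and the median difference of the list was -0.04, beside 0.06 over all genes. HSPA9, a mitochondrial chaperone that also helps to pass clusters on, rose from 7526 to 14663 (0.96 ± 0.10, adjusted p = 0.000287). The scaffold gene ISCU rose by 0.49 and BOLA3, a factor of cluster delivery, by 0.50, while NFU1, which works beside BOLA3, fell from 2421 to 1464 (-0.73 ± 0.15, adjusted p = 0.0140). HSPA9 kept its call in 14 of 15 alternatives, ISCU and NFU1 in 10 and BOLA3 in 6.

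**Figure D4:**
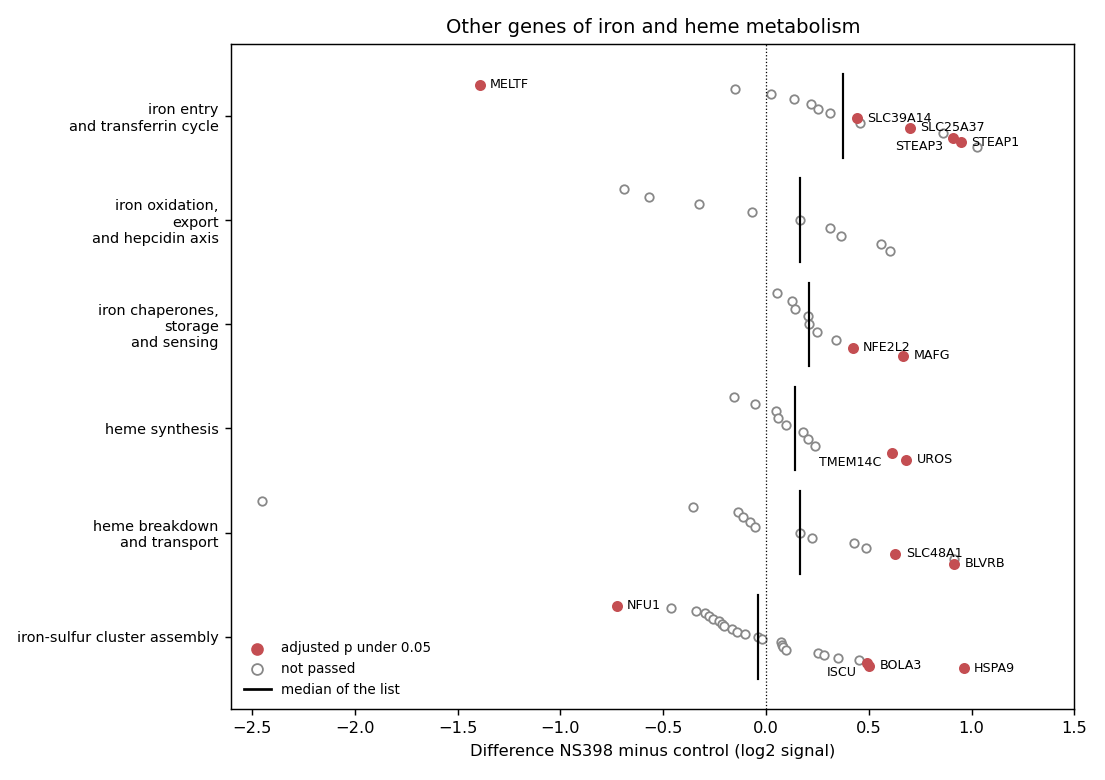
Difference between NS398 and control arrays of 80 other genes of iron and heme metabolism in 6 lists (points, brightest probe set), with the median of each list (vertical bars). The 15 named points passed the variance-trend test, 13 to the right of 0 and MELTF (-1.39) and NFU1 (-0.73) to the left.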

How the data were processed

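The deposited intensity values, 1 linear probe set signal per array, were made by the authors before deposit. Without the highest and lowest 2% each array averaged 500, unlike the gcRMA values described in the study's methods, and affy is the package listed in the submitters' processing notes. Their log2, with no offset, was fitted with lmFit and eBayes (trend and robust, limma 3.58.1, R 4.3.3) over all 54675 probe sets, with treatment as the only term. Probe sets were named by the platform annotation, updated by Entrez number through RefSeq: 41097 name 1 gene. The members, lists, tests and alternatives were chosen with earlier results of these data known. Named genes were all members, up to 4 called genes per list with the smallest p, and the 5 genes most like the member with the smallest p. Alternatives were plain limma, median centring, quantile normalisation, an offset of 32, mean log2 signals above 4 or 7, array weights, a gene's probe sets averaged, a block for replicate number, and each array left out in turn. On simulated data of 54675 probe sets, of 50 planted differences each of 1.5-, 2-, 4- and 8-fold among probe sets above 128 the test recovered 2, 21, 36 and 42, with 1 false call. The number of arrays limits the precision. Figures were drawn with matplotlib 3.10.9.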

Additional observations from a re-analysis of the deposited data

How the results depend on the processing

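Of the 8 iron genes 2 passed as reported. With plain limma 0 passed (3 at an unadjusted p under 0.05), after median centring 0 (2) and after quantile normalisation 1. Among probe sets above a mean log2 signal of 7, 4 of 7 iron genes passed. HMOX1, 1 of these 4, met that level only through its NS398 arrays, so its call there is no separate support. Leaving out single arrays gave 0 to 3, with 0 without control replicate 3 (5 at an unadjusted p under 0.05) or NS398 replicate 2 (4) and 1 without control replicate 2 or NS398 replicate 1 or 3. Of the 80 other iron and heme genes 15 passed as reported, 0 with plain limma and 5 after median centring. Without single arrays 6 to 15 passed, and those 15 held 14 of the genes called as reported. Over all probe sets 3513 passed (1782 higher, 1731 lower), 2807 after median centring (864 higher, 1943 lower) and 24 with plain limma. After quantile normalisation 3699 of 54675 passed, without single arrays 1826 to 3984, and among probe sets above 7 there were 4713 of 22399. The difference of storage and export minus uptake, -0.07, became 0.0558 with an offset of 32, 0.21 among probe sets above 7 or without CYBRD1 (added after the data were seen) and 0.32 with all probe sets of a gene averaged, and -0.14 to -0.02 without single arrays. Signs changed for NCOA4 (-0.0094), ACO1 (-0.0266) and SLC11A2 (-0.0421) after median centring, for ACO1 without NS398 replicate 3 (-0.024) and for TFRC with averaged probe sets (-0.0757). None of these 4 genes passed in those settings, and the causes were not tested.

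The samples share only a replicate number: deviations of same-numbered arrays correlated at -0.14, -0.06 and -0.10, and 0 of 3 control arrays was closest to its own number. With the replicate number as a block 1 iron gene (FTL) and 9 of the other iron and heme genes passed, beside 2462 of all 54675 probe sets. A change of 1.5-fold, about the size of that in FTL, was recovered in 2 of 50 planted cases. Far fewer differences were planted than the 3513 probe sets that passed in the data, which makes the adjusted threshold stricter in the simulation. Its recovery is therefore not a rate for these genes, and a missing call alone does not show absence. The 95% intervals of the brightest sets of SLC11A2, ACO1, NCOA4, TFRC and SLC40A1 leave out 1.5-fold in either direction, while that of CYBRD1 holds it.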
